A study of Mus musculus with 18 samples.

Results

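The endoplasmic reticulum (ER) folding and unfolded protein response genes described here are a fixed list of 44 genes, chosen by name and found by symbol in a deposited expression table of 15137 genes. The list was chosen with earlier results of these data known. All 44 were present, and all 44 were among the 10877 genes tested, which had a value of at least 10 on the linear scale in 3 or more of 18 libraries. They comprise 10 chaperones and co-chaperones, 7 enzymes of disulfide formation and proline isomerization, 3 genes of the lectin cycle, 4 genes of stress sensing, 8 of ER-associated degradation and 12 of translocation into the ER and signal peptide removal.

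The RNA came from naive CD4+ T cells of C57BL/6J mouse spleen, sorted as CD3+CD4+CD25-CD62L+CD44-. The mice were either controls or Creld1 conditional knockouts (cKO) made with CD4-Cre, a Cre recombinase driven from the Cd4 gene, which becomes active while T cells develop in the thymus, so that the deletion precedes the sort. The labels name the control animals Control and give no Cre or floxed allele for them. Cells of each genotype were taken fresh, after 8 h of culture without stimulation, or after 8 h of culture with anti-CD3 and anti-CD28 at 1 µg/ml, antibodies that engage the T cell receptor and its co-receptor, with 3 libraries in each of the 6 groups. The labels give 1 mouse number to all 3 libraries of a group and another to each group. Separate animals are therefore not established, so the p-values cover only library-to-library variation, part or all of which may be technical.

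As background, proteins bound for the cell surface or for secretion enter the ER through the Sec61 channel, are folded there by chaperones and disulfide isomerases, and are retrotranslocated for degradation when they fail to fold. When unfolded protein accumulates, 3 sensors in the ER membrane, Ire1 (the product of Ern1), Atf6 and Perk (the product of Eif2ak3), start the unfolded protein response, which slows translation and induces the folding and degradation genes through the transcription factors Xbp1, cleaved Atf6 and Atf4. Naive T cells secrete little, and the pathway is best known in lymphocytes from plasma cells. Creld1 encodes a membrane protein with epidermal growth factor-like domains.

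The promoter elements through which this response is known to act are short, and they are shown here to tell apart the listed genes that hold their letters from those that do not. RefSeq promoter windows on GRCm38.p6, from 250 bases before to 50 after the start, were matched for 36 of the 44 genes in 37 windows. Hspa13, Hyou1, Manf, Atf6, Derl1, Sec61a1, Ssr2 and Spcs3 had no window, so their promoters were not searched. The elements are those known for this response and the list was chosen for it, so the shares below are no test of the list. Both strands were searched for 3 elements. The ER stress response element (ERSE) is CCAAT and CCACG with any 9 bases between, the shorter ERSE-II is ATTGG and CCACG with any 1 base between, and the unfolded protein response element is TGACGTGG. ERSE and ERSE-II share the letters CCACG, which were also searched alone. ERSE was in 8 of the 37 windows, or 21.6%, against 39 of all 32851 windows, or 0.119%. ERSE-II was in 2, or 5.41%, against 12 of all windows, or 0.0365%. TGACGTGG was in 0, against 0.676% of all windows, and CCACG alone was in 27, or 73%, against 32.8%. Over the 14649 windows of genes in the expression table the shares were 0.123% for ERSE, 0.0546% for ERSE-II, 0.792% for TGACGTGG and 43.2% for CCACG. The 11 matches follow, read 5′ to 3′ on the strand of the element, with the letters fixed by the search in capitals.
Hspa5 ERSE: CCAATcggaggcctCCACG
Hsp90b1 ERSE, far: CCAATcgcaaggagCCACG
Hsp90b1 ERSE, near: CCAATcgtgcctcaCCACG
Dnajc3 ERSE: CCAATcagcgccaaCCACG
Pdia6 ERSE: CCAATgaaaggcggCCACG
Ero1lb ERSE: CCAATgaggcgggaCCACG
Calr ERSE: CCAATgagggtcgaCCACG
Canx ERSE: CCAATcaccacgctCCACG
Syvn1 ERSE: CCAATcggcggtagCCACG
Dnajb11 ERSE-II: ATTGGcCCACG
Herpud1 ERSE-II: ATTGGgCCACG
The Hspa5 match lay at chr2:34772025-34772043, from -65 to -47 relative to the start, and the Syvn1 match from -44 to -26. The Calr, Ero1lb and near Hsp90b1 matches were on the strand opposite to the gene, and the Dnajb11 match lay after the start, from 8 to 18. A match describes letters only.

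Of these promoters, 3 are shown in full up to the start site, because Hspa5 is the member with the highest level, Hsp90b1 holds 2 matches, and Herpud1 holds the shorter element. Capitals mark the whole match, and each sequence is written on the strand of its gene. Hspa5 spans chr2:34771840-34772089 on the plus strand, Hsp90b1 spans chr10:86705445-86705694 on the minus strand and Herpud1 spans chr8:94386179-94386428 on the plus strand, on GRCm38.p6.
Hspa5: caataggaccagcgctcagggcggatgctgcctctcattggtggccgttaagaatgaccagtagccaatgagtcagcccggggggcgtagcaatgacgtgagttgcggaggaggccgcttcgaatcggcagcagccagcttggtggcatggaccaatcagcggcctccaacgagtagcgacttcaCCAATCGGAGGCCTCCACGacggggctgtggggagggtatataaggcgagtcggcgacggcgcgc
Hsp90b1: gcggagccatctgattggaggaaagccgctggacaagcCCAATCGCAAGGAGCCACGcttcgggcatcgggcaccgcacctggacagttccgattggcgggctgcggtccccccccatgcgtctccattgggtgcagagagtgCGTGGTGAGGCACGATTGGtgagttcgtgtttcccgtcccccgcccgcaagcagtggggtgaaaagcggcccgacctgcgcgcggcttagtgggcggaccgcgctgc
Herpud1: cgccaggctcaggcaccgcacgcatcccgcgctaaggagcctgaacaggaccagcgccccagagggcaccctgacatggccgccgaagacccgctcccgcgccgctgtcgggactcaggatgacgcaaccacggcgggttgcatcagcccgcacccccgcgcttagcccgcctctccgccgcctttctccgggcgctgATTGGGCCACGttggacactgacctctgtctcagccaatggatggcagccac

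Of facts that concern all libraries, the deposited values ran from -1.36 to 17.2 and were read as log2 of normalized counts, so that the sequencing depth is unknown. Their linear sums ran from 6782465 to 7419367 per library. Creld1, the targeted gene, averaged 4.58 ± 0.26 log2 in fresh control and 4.10 ± 0.36 in fresh cKO cells, 5.03 ± 0.32 and 4.03 ± 0.27 in unstimulated culture, and 4.74 ± 0.34 and 4.38 ± 0.24 in stimulated culture (SD, n = 3 each). It was lower in cKO cells in all 3 conditions, but none of these differences passed over all genes (limma, Benjamini-Hochberg adjusted p = 0.790, 0.103 and 0.974), and a gene measure may include transcript outside the deleted part. Of the markers listed for T cells, 7 of 8 were in the table and all 7 were tested. Their summed level lay between 14.98 and 15.19 log2 in every library. Of 12 B and plasma cell markers, which would carry a strong ER program of their own, 9 were in the table and 1 passed the minimum. Their summed level lay between 4.84 and 5.24 log2 in fresh and between 5.03 and 5.59 in cultured libraries. In control cells it was higher in culture without overlap, at 4.85 to 5.10 fresh, 5.29 to 5.59 unstimulated and 5.20 to 5.35 stimulated. In cKO cells the fresh and cultured ranges overlapped. The mean of Cd79a went from 3.94 to 4.76 between fresh and unstimulated control cells. Of 8 CD8 T and natural killer cell markers, 3 of the 8 in the table passed the minimum, and their summed level moved with culture in both genotypes. It lay between 7.81 and 8.33 log2 in the 6 fresh and between 7.25 and 7.74 in the 12 cultured libraries, without overlap. Between fresh and unstimulated control cells the mean of Prf1 (perforin) went from 7.10 to 6.20 and that of Eomes from 5.46 to 4.72. The mean of Cd8b1, the third of these markers to pass the minimum, went from 6.56 to 6.50. Of the same list, Gzma, Gzmb, Ncr1 and Klrb1c averaged under 1 log2 in every group and Cd8a between 1.52 and 1.69. Of 8 myeloid markers, 7 were in the table and 4 were tested, and their summed levels overlapped, at 7.59 to 7.92 in fresh and 7.48 to 7.89 in cultured libraries. Within that list Itgam went from 5.02 to 4.09 and Cd68 from 5.19 to 4.49 in control cells. Fcgr3 went from 3.48 to 4.22 and Cst3, the highest of the list, from 6.91 to 7.16. The part of these markers' change in the results on culture below was not tested.

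In fresh control cells the ER chaperones led the list. Divided by exon length, Hspa5, which encodes the Hsp70 chaperone BiP, had the highest level, at 1252 ± 103 linear units per kb (SD, n = 3). Calr, which encodes the calcium-binding lectin calreticulin, followed at 1022 ± 64.1, and the 2 ranges did not overlap. Pdia3, a disulfide isomerase that works with calreticulin, stood at 782 ± 94.0 and Hsp90b1, the ER Hsp90 known as Grp94, at 730 ± 110, with overlapping ranges. Edem1, which directs misfolded glycoproteins to degradation, had 435 ± 24.3 per kb and Dnajb9, a BiP co-chaperone that restrains Ire1, had 417 ± 73.1. The sensors were low by comparison. Eif2ak3 had 84.6 ± 1.34 per kb, Ern1 13.1 ± 0.16 and Atf6 10.3 ± 1.29, the lowest of the 44, while Xbp1, the transcription factor whose RNA Ire1 splices, had 225 ± 20.9. Together the 44 genes held 0.576% ± 0.027 of the linear sum in fresh control cells and 0.603% ± 0.065 in fresh cKO cells. In unstimulated culture they held 0.474% ± 0.0065 and 0.507% ± 0.0063, and in stimulated culture 0.511% ± 0.0081 and 0.500% ± 0.017. In control cells the lowest fresh share, 0.549%, was above the highest cultured one, 0.517%. In cKO cells it was too, at 0.532% against 0.519%. Such a share is weighted to the members of highest level, Hspa5 among them.

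The first comparison asked how 8 h of culture without stimulation changed the list relative to fresh cells. In control cells 13 members fell and 1 rose, which is 31.8% of the 44, against a background of 29.0% of all tested genes called in either direction. By direction, 29.5% of the members were lower, against 14.1% of all genes, and 2.27% were higher, against 14.9%. In cKO cells 11 members fell and 0 rose, or 25% lower, against 22.1% of all genes called, 11.4% lower and 10.7% higher. The share of members called was thus near the background in both genotypes, and its split by direction was not. The list was chosen with earlier results of these data known, so this split describes the list only. It also rests on single libraries. Without control fresh library 1 the number called lower in control cells was 6 in place of 13, with no share of all genes given for that fit. The median log2 difference was -0.12 over the members in control cells and -0.15 in cKO cells, against 0.04 and -0.02 over all genes. Calls are those of limma at a Benjamini-Hochberg adjusted p under 0.05 over 10877 genes. In bulk RNA, fewer cells of a type and less RNA per cell cannot be told apart.

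Dnajb9 had the largest fall on the list. Its log2 values were 10.32, 9.88 and 9.92 in fresh control libraries and 7.79, 7.87 and 7.95 after unstimulated culture. In cKO cells they were 10.40, 10.68 and 9.81 fresh and 8.04, 8.12 and 8.22 in culture. Fresh and cultured libraries were more than 1.5 log2 apart at their nearest, in both genotypes. The log2 difference was -2.17 ± 0.18 (SE), a 4.50-fold fall, in control cells (limma, adjusted p = 4.2e-07) and -2.17 ± 0.18 in cKO cells (adjusted p = 4.0e-07). Among all 10877 genes it was the 13th largest fall in control cells.

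Hspa5 came next. It stood at 12.46, 12.23 and 12.41 log2 in fresh control libraries and at 10.63, 10.78 and 10.83 in culture. Fresh cKO libraries stood at 12.55, 12.72 and 12.25, and cultured ones at 10.78, 10.77 and 10.89. The groups did not overlap, and Hspa5 fell 3.07-fold in control cells (log2 difference -1.62 ± 0.11, limma adjusted p = 6.0e-08) and 3.22-fold in cKO cells (-1.69 ± 0.11, adjusted p = 4.0e-08). Its place among all genes was the 33rd largest fall in control cells. Per kb of exon, its level in control cells went from 1252 to 407, below the 717 of Calr.

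Among the other chaperones, Dnajb11, a BiP co-chaperone of the ER lumen, and Manf, a small secreted ER stress protein, fell in both genotypes, Dnajb11 by 0.34 and 0.33 log2 (limma, adjusted p = 0.0240 and 0.0330) and Manf by 0.27 in each (adjusted p = 0.0232 and 0.0267). Leaving out 1 library at a time, Dnajb11 lost its call in 3 of 6 omissions in control and 4 of 6 in cKO cells, and Manf in 4 and 5. Fresh and cultured values of Dnajb11 did not overlap in control cells and overlapped in cKO cells. Dnajc3, the co-chaperone p58IPK, fell in control cells (-0.31 ± 0.10, limma adjusted p = 0.0325), and its cKO difference of -0.29 had an adjusted p of 0.0512. Sdf2l1, another BiP partner, stood at -0.43 in control cells (adjusted p = 0.0714) and fell by 0.72 in cKO cells (adjusted p = 0.00671). Dnajc10, an ER reductase with a J domain, was the only listed gene called higher, and only in control cells. Its log2 values were 9.22, 8.95 and 8.98 in fresh control libraries and 9.42, 9.39 and 9.37 in culture, and it rose by 0.34 ± 0.11 (adjusted p = 0.0348), with 0.31 in cKO cells (adjusted p = 0.0667). Hsp90b1, which holds 2 ERSE matches, had -0.33 and -0.31 (adjusted p = 0.0908 and 0.129).

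In the lectin cycle, Calr fell by 0.51 ± 0.09 in control cells and 0.40 ± 0.09 in cKO cells (limma, adjusted p = 5.2e-04 and 0.00347), from 11.55, 11.42 and 11.60 log2 in fresh control libraries to 10.95, 11.02 and 11.07. The groups lay clear of each other. Its membrane-bound relative Canx, which carries an ERSE match too, had -0.06 and -0.10 and passed in neither genotype, nor did the glycoprotein folding sensor Uggt1. Of the 7 disulfide and proline isomerization genes, Pdia6 alone was called, and only in cKO cells (-0.29 ± 0.08, adjusted p = 0.0153), with -0.18 in control cells (adjusted p = 0.105). The genotype difference of the culture effect was not called for Pdia6 or any other member.

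Of the sensing genes, Xbp1 fell in both genotypes with little spread. It stood at 9.56, 9.35 and 9.61 log2 in fresh control libraries and at 8.80, 8.84 and 8.82 in culture. Fresh cKO libraries stood at 9.37, 9.56 and 9.44 and cultured ones at 8.73, 8.81 and 8.82. Every fresh library was above every cultured one. The log2 difference was -0.69 ± 0.08 in control cells and -0.67 ± 0.08 in cKO cells (limma, adjusted p = 1.3e-05 and 2.0e-05). The values do not separate the spliced from the unspliced form of Xbp1. Eif2ak3 fell by 0.27 and 0.44 (adjusted p = 0.0353 and 0.00223). Its call in control cells was lost in each of the 6 omissions of 1 library (adjusted p up to 0.105), and its call in cKO cells in none. Atf6 fell by 0.43 in control cells (adjusted p = 0.0201). Ern1 was called in neither.

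In degradation, Herpud1, a membrane scaffold of the retrotranslocation complex, and Edem1 fell in control cells, by 0.39 ± 0.12 and 0.49 ± 0.13 (limma, adjusted p = 0.0235 and 0.00991). In cKO cells Herpud1 had -0.32 and Edem1 -0.37, with adjusted p of 0.0715 and 0.0504. The ubiquitin ligase Syvn1 (Hrd1), its partner Sel1l, the channel proteins Derl1 and Derl2, the lectin Os9 and the mannosidase-like Edem2 were called in neither genotype. In translocation, Ssr3, a subunit of the TRAP complex beside the channel, fell by 0.49 and 0.39. Sec63, which brings BiP to the channel, fell by 0.30 in control cells, and the channel subunit Sec61a1 fell by 0.36 in cKO cells. The remaining 9 translocation genes were not called, among them the signal peptidase subunit Spcs3, at 0.30 in control and 0.35 in cKO cells. In all, 8 members were called in both genotypes, 6 in control cells only, 3 in cKO cells only and 27 in neither. The share of all genes in each of these classes is not given, so the counts describe the list only. No genotype difference of the culture effect passed for any member (smallest adjusted p 0.843).

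**Figure D1:**
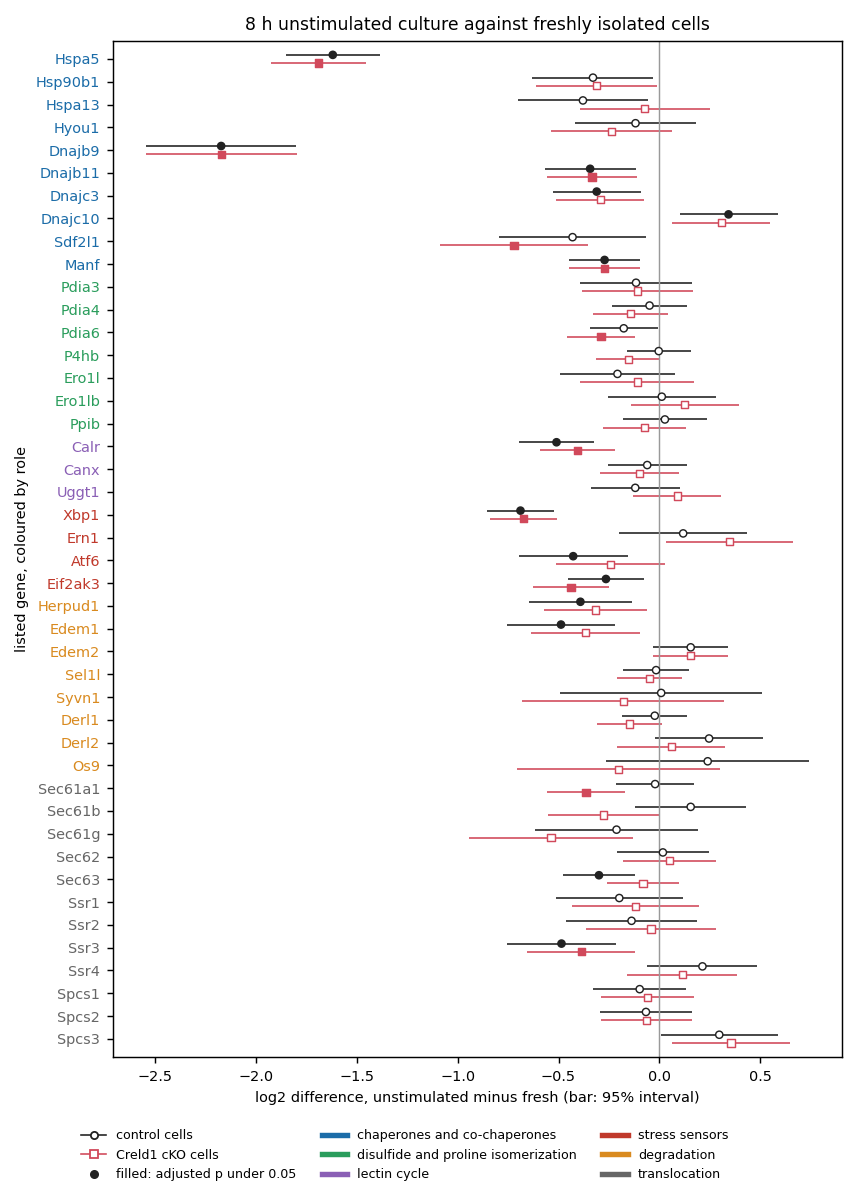
Log2 difference of each of the 44 genes between unstimulated 8 h culture and fresh cells (x axis, culture minus fresh), with its 95% interval, in control and Creld1 cKO cells; gene names are coloured by role and filled points have an adjusted p under 0.05. Dnajb9 at -2.17 and Hspa5 at -1.62 in control cells stand far to the left of the other members.

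The counts depended on single libraries, and the share of all genes called in these refits is not given. Without control fresh library 1 the number called lower in control cells was 6 in place of 13, and the single rise became 2. Without control fresh library 2 or 3, or without any 1 control unstimulated library, that rise was not called. In cKO cells the number called lower was 7 without cKO unstimulated library 2 and 17 without cKO fresh library 3, and 1 rise appeared without cKO fresh library 1 or 3 and 2 without library 2. Hspa5, Dnajb9 and Xbp1 were called in both genotypes under all 16 alternatives run for each, single-library omissions included. Calr, and in control cells Edem1, in cKO cells Eif2ak3, Sdf2l1 and Sec61a1, also kept their calls in all 6 omissions. The other calls were lost in 1 to 6 of them, among them Dnajc10 in 5 of 6, Dnajc3 in 4, Herpud1 and Atf6 in 3, and Ssr3 in 1 in control and 5 in cKO cells. The genes that carry an ERSE match did not move alike in control cells, with log2 differences of -1.62 for Hspa5, -0.51 for Calr, -0.33 for Hsp90b1, -0.31 for Dnajc3, -0.18 for Pdia6, -0.06 for Canx, 0.01 for Ero1lb and 0.01 for Syvn1, and Dnajb9 and Xbp1 have no match in their windows.

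Fresh and cultured cells also differed in some immediate early genes, which were looked at after the values of the list were seen. Fos was lower in unstimulated culture than in fresh control cells by a log2 difference of -3.09 ± 0.18, and Jun by -3.15 ± 0.24 (limma, adjusted p = 2.1e-08 and 2.3e-07). In cKO cells they had -3.42 and -3.57. Egr1 had -0.82 in control and -1.14 in cKO cells (limma, adjusted p = 0.00493 and 4.6e-04), and Nr4a1 -1.06 and -1.65 (adjusted p = 0.0692 and 0.00987). Egr2 went the other way, at 0.30 and 0.19, and passed in neither genotype. The part of these genes in the fall of the ER genes was not tested.

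Stimulated cultures were compared with the same fresh libraries, a comparison added after the data were seen. It shares those libraries with the comparison above, so the values stand side by side and are no independent repeat. In control cells 7 members fell and 2 rose, against a background of 18.8% of all genes called, 9.26% lower and 9.58% higher. In cKO cells 11 fell and 1 rose, against 30.3% called, 15.7% lower and 14.5% higher. Dnajb9 had -2.16 in control and -2.42 in cKO cells, Hspa5 -1.31 and -1.47, Xbp1 -0.65 and -0.52, Calr -0.35 and -0.47, and Eif2ak3 -0.46 and -0.44. These 5 genes were called lower in all 4 comparisons with fresh cells, though Eif2ak3 rests on a call in control culture that no omission of 1 library kept. In total 20 members were called in at least 1 of the 4 and 24 in none. No share of all genes meeting these joint rules is given, so the counts describe the list only.

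Other members passed in part of these comparisons. Edem1 fell by 0.41 in control cells and by 0.70 ± 0.13 in cKO cells, from 11.74, 11.79 and 11.26 log2 to 11.08, 10.90 and 10.71 in the latter (limma, adjusted p = 9.1e-04). Herpud1 fell by 0.51 in control cells and had -0.12 in cKO cells. Hsp90b1, Dnajb11, Dnajc3, Sec63 and Ssr3 fell in cKO cells, by 0.48, 0.31, 0.35, 0.23 and 0.57. Dnajc10 rose by 0.35 and Spcs3, a signal peptidase subunit, by 0.48 in control cells, and Ssr4, a TRAP subunit, rose by 0.42 in cKO cells. No test of a genotype difference was made for these effects. Here too the counts moved with single libraries, again with no share of all genes given for the refits. In control cells 0 members rose without control fresh library 2 or 3 or stimulated library 1 or 3, and 1 rose without stimulated library 2. By gene, Edem1 lost its call in 5 of 6 omissions in control cells and in none in cKO cells, Dnajc10 lost it in 5 and Spcs3 in 4, and in cKO cells Dnajb11, Dnajc3, Sec63 and Ssr4 lost it in 4 and Hsp90b1 in 3. In cKO cells 19 fell and 7 rose without cKO fresh library 3. Without cKO fresh library 2 or cKO stimulated library 2 or 3, 7 fell and 0 rose, and 0 rose without cKO fresh library 1.

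**Figure D2:**
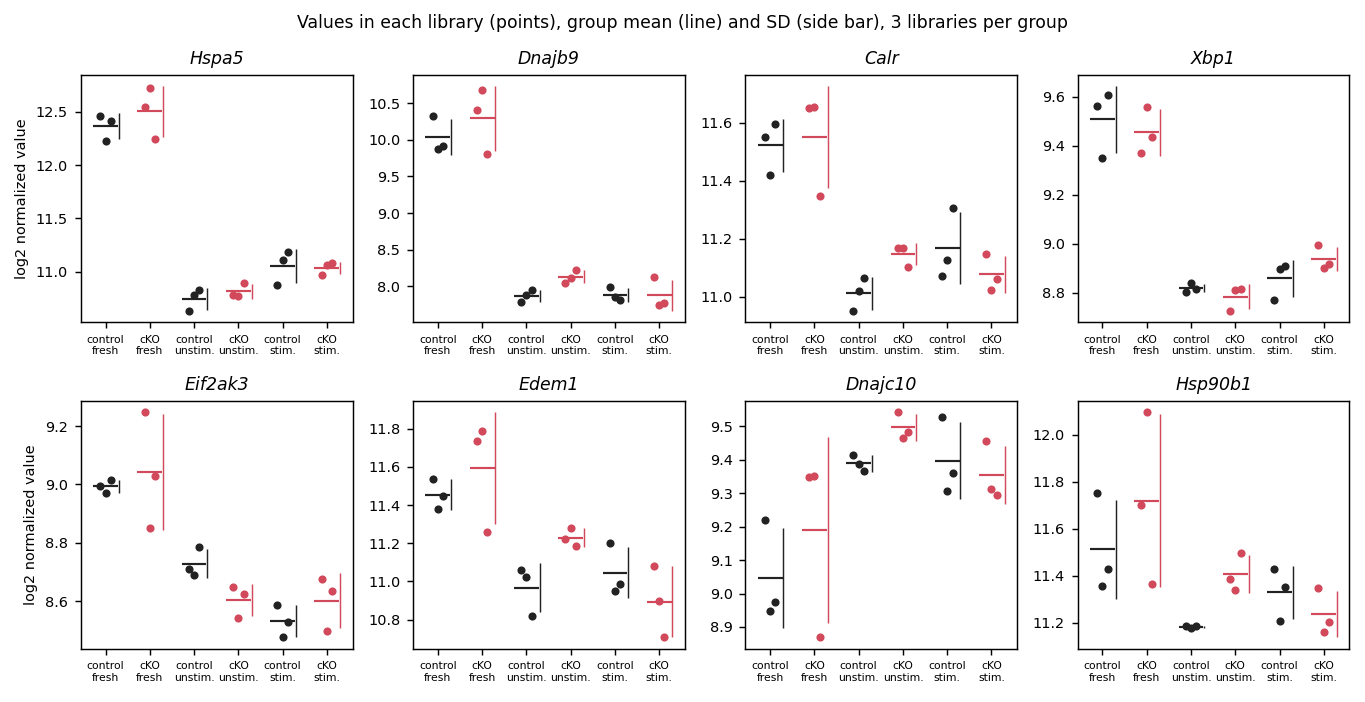
Log2 value of 8 listed genes in each of the 18 libraries (points) with the group mean and SD (n = 3), by condition and genotype. Hspa5, Dnajb9 and Xbp1 are high in the 6 fresh libraries and low in the 12 cultured ones in both genotypes, and Dnajc10 runs the other way in control cells.

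The next comparison asked whether stimulation moved the list relative to unstimulated culture. No member passed in control or in cKO cells by limma, against 0.349% and 0.285% of all tested genes. At an unadjusted p under 0.05 there were 4 members in control cells and 10 in cKO cells, against 11.3% and 23.1% of all genes. In a fit of the 2 cKO groups alone 8 members passed as higher and 1 as lower, or 18.2% and 2.27%, against 15.5% and 6.10% of all genes. Egr2, an early target of the T cell receptor chosen as a check after the data were seen, rose by 1.14 log2 in control and 1.38 in cKO cells (limma, adjusted p = 0.0188 and 0.00304). Other activation genes chosen as checks were mixed. In control cells Egr1, Irf4 and Il2ra also passed as higher (limma, adjusted p = 0.00803, 0.0395 and 0.0309). Fos, Jun and Nr4a1 did not, at 0.09, -0.22 and 0.59 (adjusted p = 0.826, 0.659 and 0.539). In cKO cells Egr1 also passed as higher (limma, adjusted p = 2.8e-04). Irf4, Il2ra, Nr4a1, Fos and Jun did not pass there (adjusted p = 0.0643, 0.0525, 0.113, 0.214 and 0.318).

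In control cells the 4 members with the smallest p were Hspa5, Dnajb11, Manf and Eif2ak3. Hspa5 was at 10.63, 10.78 and 10.83 log2 without and 10.88, 11.11 and 11.19 with stimulation. All stimulated libraries were thus above all unstimulated ones, but the difference of 0.31 (95% interval 0.07 to 0.54) had an adjusted p of 0.307 by limma. Dnajb11 had 0.29, Manf 0.23 and Eif2ak3 -0.20, with adjusted p of 0.320, 0.329 and 0.421. In cKO cells the smallest p belonged to Sdf2l1, Sec61a1, Pdia6 and Ssr2, with differences of 0.64, 0.33, 0.28 and 0.41 and adjusted p of 0.137, 0.145, 0.160 and 0.197. Sdf2l1 stood at 4.32, 3.91 and 3.90 log2 without and 4.62, 4.62 and 4.81 with stimulation, so that its groups did not overlap. In stimulated cultures Hspa5 remained more than 1 log2 below every fresh library.

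Groups did not overlap for 13 members in control cells, or 29.5%, against 20.5% of all genes, and for 18 members in cKO cells, or 40.9%, against 42.3%. Differences over the 44 members lay between -0.37 and 0.31 in control cells and between -0.34 and 0.64 in cKO cells. The widest 95% intervals reached -0.87 and 1.07, for the degradation genes Os9 in control cells and Syvn1 in cKO cells. The genotype difference of the stimulation effect passed for no member (smallest adjusted p 0.166, limma). At an unadjusted p under 0.05 it had 7 members, against 28.0% of all genes. It was largest for Os9, at 0.91 ± 0.33, and the other members of smallest p were Sec61a1 at 0.50, Sec63 at -0.33 and Edem1 at -0.42.

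**Figure D3:**
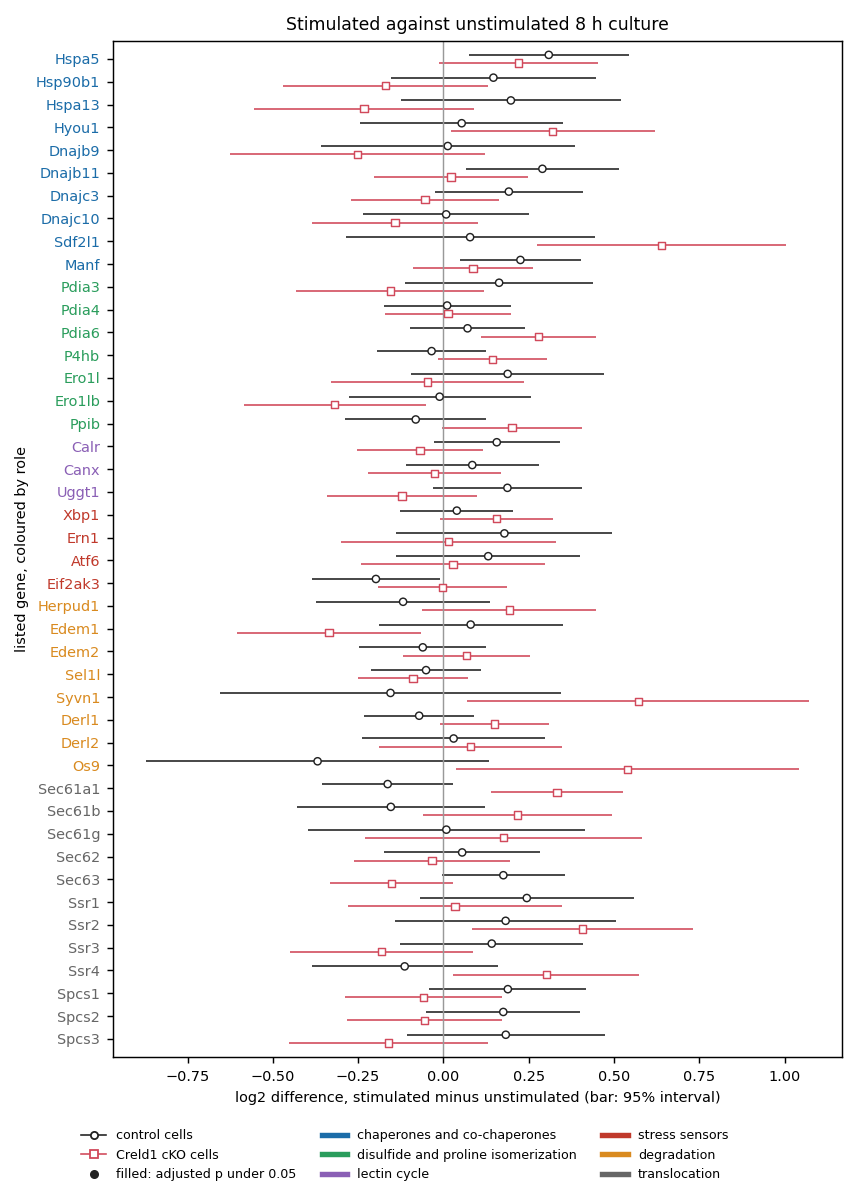
Log2 difference of each of the 44 genes between stimulated and unstimulated 8 h culture (x axis, stimulated minus unstimulated), with its 95% interval, in control and Creld1 cKO cells; gene names are coloured by role. No point is filled, since none had an adjusted p under 0.05, and the largest difference is that of Sdf2l1 in cKO cells, at 0.64.

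The study's central comparison was cKO against control. None of the 44 members passed by limma in fresh cells, in unstimulated culture, in stimulated culture or on the average of the 3, and of all genes 1, 0, 0 and 2 passed, or 0.00919%, 0%, 0% and 0.0184%. At an unadjusted p under 0.05 there were 1, 9, 0 and 2 of the 44 members, against 3.94%, 33.2%, 1.47% and 8.28% of all genes. In fresh cells the members of smallest p were Herpud1 at -0.26, Ssr2 at -0.32, Sel1l at 0.12 and Ppib at -0.15 (cKO minus control, adjusted p = 0.790 for each). Ppib encodes the ER cyclophilin. Herpud1 stood at 8.97, 9.18 and 9.16 log2 in control and 8.78, 8.60 and 9.15 in cKO libraries, and the groups overlapped, as they did for all 44 members against 4.31% of all genes not overlapping. Without cKO fresh library 3, 6 members passed as higher and 2 as lower in fresh cells, against 4.15% and 6.82% of all genes. The 6 were Dnajb9 at 0.50, Dnajc3 at 0.30, Dnajc10 at 0.30, Pdia3 at 0.36, Spcs2 at 0.29 and Spcs3 at 0.36, and the 2 were Herpud1 at -0.41 and Syvn1 at -0.69 (adjusted p from 0.0381 to 0.0490). The same omission gave 1 higher and 3 lower on the average of conditions, for which no share of all genes is given.

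In unstimulated culture the genotypes lay further apart. Groups did not overlap for 25 members, or 56.8%, against 52.1% of all genes, a share near the background. In a fit of these 2 groups alone 9 members passed as higher and 4 as lower, or 20.5% and 9.09%, against 11.6% and 22.8% of all genes, so the members' total share was again near that of all genes. Os9, the lectin that delivers misfolded glycoproteins to Hrd1, had 9.83, 10.01 and 10.11 log2 in control and 9.29, 9.46 and 9.06 in cKO libraries. All cKO libraries were below all control ones, and the difference was -0.71 ± 0.24 (95% interval -1.21 to -0.21), with an adjusted p of 0.103 by limma. Sec61a1 had -0.35 ± 0.09 with the same adjusted p, Sec61b -0.36 (adjusted p = 0.104) and Ppib -0.26 (adjusted p = 0.107). Sec61a1 stood at 10.12, 10.03 and 10.06 in control and 9.68, 9.78 and 9.70 in cKO libraries, again without overlap. In stimulated culture the largest member difference was 0.29, for Sdf2l1, 2 members did not overlap (4.55%, against 6.19% of all genes), and Sec61a1 had 0.15, Sec63 -0.12 and Ssr4 0.16, all with an adjusted p of 0.974. On the average of conditions the members of smallest p were Ero1l, an oxidase that recharges the disulfide isomerases, at 0.20, Ppib at -0.13, Ssr2 at -0.18 and Sel1l at 0.09 (adjusted p = 0.463 each).

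The direction of these genotype differences followed the base composition of the members' longest transcripts. With the 44 genes split at their median GC content of 47.6%, 16 of the 22 GC-rich members were lower in cKO cells in unstimulated culture, against 2 of the 22 GC-poor ones. Their medians were -0.15 and 0.19 log2. Across the 44 genes, Pearson's r of the difference with GC content was -0.71 in fresh cells, -0.79 in unstimulated culture and 0.62 in stimulated culture. The stimulation effect had -0.51 in control and 0.77 in cKO cells, and the culture effect 0.23 and 0.04. These are descriptions across genes that share the same libraries, and genes are not independent replicates. The slope of all genes' values on GC content was computed for each library from these same values. It averaged 0.15 ± 0.09 in control and -0.13 ± 0.06 in cKO unstimulated libraries (SD, n = 3). In fresh cKO cells library 3 had 0.159, against -0.193 and -0.312 for the others. The 6 members that passed as higher without that library all had a GC content under the median, at 47.3% or less, and the 2 that passed as lower had 53.0% and 56.6%.

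**Figure D4:**
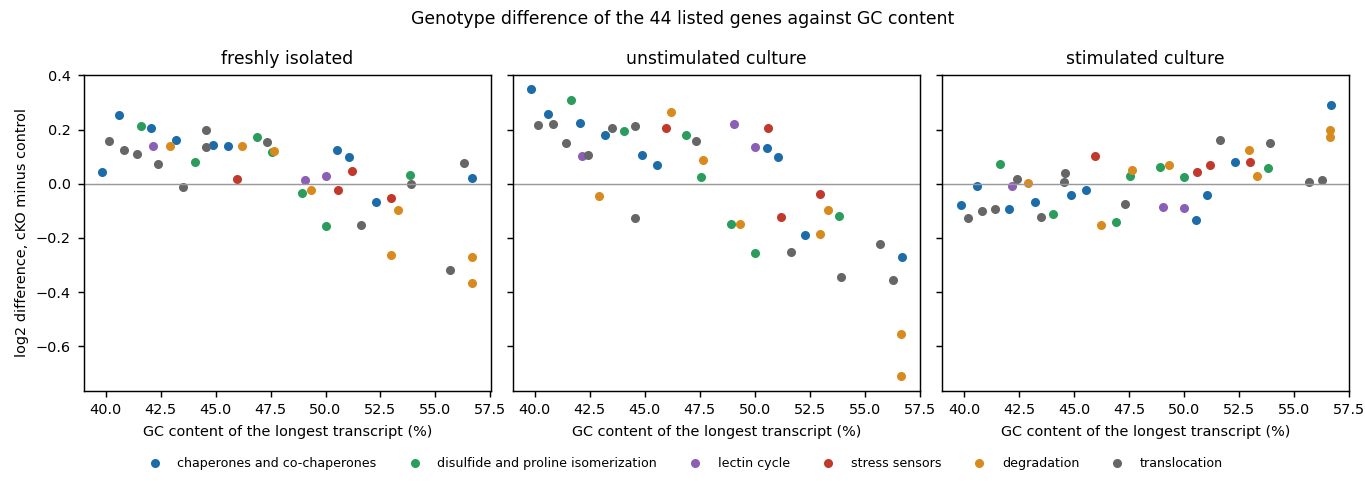
Log2 difference between cKO and control (y axis) against the GC content of each gene's longest transcript in percent (x axis), for the 44 genes. Panels show fresh cells, unstimulated culture and stimulated culture. In unstimulated culture most GC-rich members lie below 0 and most GC-poor ones above it, with r = -0.79, and in stimulated culture the slope has the other sign.

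With that slope as a covariate in the model, no member passed any genotype comparison. In unstimulated culture Os9 went from -0.71 to -0.07, Sec61a1 from -0.35 to -0.21 and Syvn1 from -0.55 to 0.03. There the slope did not overlap between genotypes, at 0.064 to 0.240 in control and -0.185 to -0.066 in cKO libraries. A genotype effect related to GC content and a difference between libraries can therefore not be told apart in that condition. The fall in culture was there with it: Hspa5 had -1.56 in control and -1.69 in cKO cells, Dnajb9 -1.94 and -2.18, and Xbp1 -0.67 in each. In this fit 18 members were lower and 4 higher in control culture, against 20.9% and 22.0% of all genes, and 20 lower and 3 higher in cKO culture, against 24.9% and 20.5%. For stimulated against fresh cells 13 were lower and 3 higher in control cells, against 20.7% and 20.3%, and 10 lower and 4 higher in cKO cells, against 18.6% and 16.6%. Dnajc3, Herpud1, Edem1 and Ssr3 joined the 5 genes called lower in all 4 comparisons with fresh cells, making 9. Dnajc10 and Spcs3 were called higher in all 4. As before, no share of all genes is given for these joint rules.

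A further 66 genes of the same pathway were listed beside the members, of which 60 were tested. In control culture 9 rose and 11 fell relative to fresh cells, and in cKO culture 5 rose and 11 fell. These are 15% and 18.3%, and 8.33% and 18.3%, of the 60, against 14.9% and 14.1%, and 10.7% and 11.4%, of all genes, so most lay near the background. Atf4, the transcription factor downstream of Perk, was at 10.75, 10.92 and 10.97 log2 in fresh control libraries and at 9.91, 9.98 and 10.03 in culture. It fell by 0.91 ± 0.09 in control and by 1.15 ± 0.09 in cKO cells (limma, adjusted p = 3.4e-06 and 3.3e-07). Ddit3, which encodes the Atf4 target Chop, had 0.00 and -0.31, and Creld2, an ER stress-induced relative of Creld1, had 0.04 and -0.09, none of which passed. Ppp1r15a, which encodes the phosphatase subunit Gadd34 that reverses the Perk signal, was picked after its values were seen and had -2.29 and -2.34 (adjusted p = 1.2e-05 and 1.1e-05). That was the largest fall of the 60 in both genotypes. The largest rise was that of Crebrf, at 0.96 in control and 1.27 in cKO cells. No gene of this second list passed for stimulation or for genotype in any condition, and Creld2 had -0.13, -0.26 and 0.11 between cKO and control in fresh, unstimulated and stimulated cells.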

How the data were processed

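RNA of 18 libraries (10 ng, TruSeq v2, 75-base single-end reads) was processed by the authors. The submitters' processing notes name CASAVA 1.8, HISAT2 2.1.0, SAMtools 1.4, Partek 6.6, DESeq2 and mm10. The authors deposited 1 table of normalized values, read as log2 from their range, since neither labels nor header state the scale. Library depth is unknown, so no counting interval is given.

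Genes with a linear value (2 to the power of the deposited value) of at least 10 in 3 libraries were tested, 10877 of 15137. One limma 3.58.1 model (R 4.3.3, trended variance) held the 6 group means with 12 residual degrees of freedom. P-values were adjusted by Benjamini-Hochberg over all tested genes. The script was tested on simulated data. Exon length and GC content came from GENCODE M21, matched for 15031 symbols, and the GC slope is each library's regression of centred values on GC content. Promoters came from RefSeq, GRCm38.p6.

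The members and gene lists were chosen with earlier results of these data known. Values are given for members past the threshold or, where fewer than 4 passed, for the 4 of smallest p. From the second pathway list Creld2, Ddit3 and Atf4 are given, with the 4 largest called rises and falls under stimulation in control cells (there were 0). Ppp1r15a and Crebrf of that list were added after their values were seen. The comparisons of stimulated with fresh cells and the check genes were added after the data were seen. Alternatives were another pseudocount, filter and normalization, separate fits, no variance trend, a block, a GC covariate and the omission of each library.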

Additional observations from a re-analysis of the deposited data

How the results depend on the processing

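Counts of members called are given here where they moved by over 1.5 times. Where no share of all genes is given for a count, here or for the same fit above, that count describes the list only. Fits of only the groups compared have fewer residual degrees of freedom. They called 8 higher and 1 lower for stimulation in cKO cells (15.5% and 6.10% of all genes). For culture in cKO cells they called 3 lower (3.93% of all genes). Between genotypes in unstimulated culture they called 9 higher and 4 lower (11.6% and 22.8% of all genes). For the genotype difference of the stimulation effect they called 3 higher and 4 lower (15.8% and 5.99% of all genes). Against fresh cells they called 1 higher for stimulated control cells (6.63% of all genes). For stimulated cKO cells against fresh they called 0 higher and 3 lower (3.14% and 3.78% of all genes). Quantile normalization gave 2 higher and 7 lower for culture in cKO cells. The median shift gave 0 higher for culture in control cells. The rises of stimulated control against fresh cells were 1 under the median shift, without the filter and without the variance trend. With the GC slope covariate, stimulation in control cells had 1 higher (Ssr2), culture 4 higher in control cells and 3 higher and 20 lower in cKO cells, and stimulated against fresh 13 lower in control and 4 higher in cKO cells. The causes were not tested.

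Libraries with the same run in their numbering were not treated as paired, since pairing was taken only where every correlation of their deviations was over 0.1. Of 45, from -0.683 to 0.689, 25 were over it. All 15 of the first run were positive, against 8 and 10 of 15 in the others, and 11 of 18 libraries correlated best on average with their own run. With that run as a replicate block, culture in cKO cells had 1 higher and the genotype comparison in unstimulated culture 1 lower. No share of all genes is given for the fits with a block. With the block and the GC slope covariate together the GC counts above recurred, stimulation in cKO cells had 1 higher, and Ppib between genotypes in unstimulated culture changed sign, to 0.00331 (adjusted p = 0.993).

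Leaving out 1 library at a time gave, for culture, 6 to 11 lower and 0 to 2 higher in control cells and 7 to 17 lower and 0 to 2 higher in cKO cells. For stimulated against fresh it gave 6 to 7 lower and 0 to 3 higher in control cells and 7 to 19 lower and 0 to 7 higher in cKO cells. Between genotypes it gave 0 to 6 higher and 0 to 2 lower in fresh cells and 0 to 1 higher and 0 to 3 lower on average. The other counts were 0 in each omission. Shares of all genes are given above only for the genotype effect in fresh cells without cKO fresh library 3. Of all counts of members over all settings 369 stayed within 1.5 times and 61 did not. Of values for single genes, 1201 kept their direction and side of the threshold, 122 lost the call, 13 gained it and 1 reversed. The average genotype effect uses all groups, so a fit of only the groups compared was not run for it.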
